A study of Mus musculus with 5 samples.

Results

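Uroplakins are the membrane proteins of the urothelium, the stratified lining of the bladder and the rest of the urinary tract, including the proximal urethra. Superficial umbrella cells assemble them into crystalline plaques that cover the luminal surface and help to make it impermeable. The tetraspanins UPK1A and UPK1B each pair with a single-pass partner before they can leave the endoplasmic reticulum, UPK1A with UPK2 and UPK1B with UPK3A or UPK3B. Their transcripts were followed here in 5 libraries of mouse tissue labelled dorsolateral prostate, an organ that lies against the urethra and the bladder neck. The 6 genes Upk1a, Upk1b, Upk2, Upk3a, Upk3b and Upk3bl were taken by symbol from the 51912 gene IDs of each table, and all 6 were found. They were selected on their counts and TPM in these same libraries, which were already known, so their values are given as a description, with no test.

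The tissue came from male mice aged 7 months that all carried floxed Ghr alleles on both chromosomes (Ghrflox/flox, the growth hormone receptor gene) and 1 copy of a C3(1)-driven SV40 T-antigen transgene (C3(1) being a prostate secretory gene), which gives rise to prostate tumours. All were given tamoxifen at 250 mg/kg a day for 5 days, and the tissue was collected 1 month after the last dose. The 3 deletion mice also had 1 copy of Cre-ERT2, a tamoxifen-activated recombinase, at the ubiquitously expressed ROSA26 locus, whereas the labels of the 2 controls list no Cre, so presence of Cre and deletion of Ghr cannot be told apart. The series calls the libraries of a group biological replicates. Library totals ran from 13812454 to 47656212 counts, and the fit across all genes called 0 of 18615 genes between the groups. Ghr itself read 14.4 and 31.3 CPM in the controls against 8.13, 20.9 and 12.1 CPM in the mice labelled Ghr deletion, so the groups overlapped and its whole-gene count is a weak check of the labels.

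Deletion replicate 3 stood apart in the uroplakins and is shown separately throughout. The probasin gene Pbsn, a secretory gene of the prostate, read 411 counts in control replicate 1, 1 in the other control, and 4, 8 and 3 across the deletion libraries. Summed over 10 seminal vesicle genes (Svs2, Svs4 and Svs5 the most abundant), deletion replicate 3 held 8848 CPM and control replicate 2 held 18592 CPM, against 274347 to 738147 CPM in the other libraries. Pate4 supplied 6707 CPM of the sum in deletion replicate 3 and 13088 CPM in control replicate 2. In deletion replicates 1 and 2 Svs2 alone read 191558 and 270169 CPM. The 10 genes did not move together: Svs1 read 78234 and 171 CPM (controls) against 6.20, 0.0626 and 9.63 CPM (deletion). Of the 10, 7 were lower in the deletion libraries without overlap, where 10.2% of all tested genes were. CPM are counts scaled to library size after TMM, edgeR's correction for unlike composition. TPM are the authors' values per gene length, and they are used here to compare genes within a library. Between libraries TPM and CPM differed: deletion replicate 3 was the highest library in TPM for 86.5% of tested genes, but in CPM for 18.2%. What made TPM and CPM differ was not tested. In this bulk tissue, fewer urothelial cells and less uroplakin RNA per cell cannot be told apart.

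Upstream sequence was at hand for 4 members, and it is shown because 3 of them (Upk1a, Upk3a and Upk3b) were high in the same library while the fourth, Upk3bl, stayed at 7 counts there beside its neighbour Upk3b. The sequences are RefSeq's for GRCm38.p6, read 5′ to 3′ on the strand of the gene, and end at the base before the RefSeq start or, where a GENCODE exon covers bases before it, at the last base ahead of that exon. The Upk3bl stretch lies inside the gene's GENCODE span, in an intron of the transcript model that starts farthest upstream. Capitals mark matches to any of 7 short motifs.
Upk1a: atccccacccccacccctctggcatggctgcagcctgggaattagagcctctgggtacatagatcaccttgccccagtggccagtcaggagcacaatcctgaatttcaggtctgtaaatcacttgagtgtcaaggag
Upk3a: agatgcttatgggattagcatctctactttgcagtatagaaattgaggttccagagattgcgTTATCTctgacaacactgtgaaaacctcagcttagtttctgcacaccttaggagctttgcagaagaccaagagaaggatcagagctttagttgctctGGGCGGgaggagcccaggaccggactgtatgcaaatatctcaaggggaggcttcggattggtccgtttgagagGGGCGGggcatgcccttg
Upk3b: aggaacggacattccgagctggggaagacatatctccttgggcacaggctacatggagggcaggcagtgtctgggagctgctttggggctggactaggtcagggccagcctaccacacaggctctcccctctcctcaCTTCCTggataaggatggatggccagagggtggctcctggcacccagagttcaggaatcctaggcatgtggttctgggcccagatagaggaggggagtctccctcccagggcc
Upk3bl: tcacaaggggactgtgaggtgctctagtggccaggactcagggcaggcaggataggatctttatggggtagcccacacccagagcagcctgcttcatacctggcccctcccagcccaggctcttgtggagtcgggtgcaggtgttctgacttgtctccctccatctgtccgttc
These stretches are chr7:30612848-30612984 (minus strand), chr15:85016891-85017140 (plus), chr5:136038246-136038495 (plus) and chr5:136057017-136057190 (plus). The motifs were searched on both strands in the 250 bases before the RefSeq start. They were the TATA box TATAAA (present in 12.4% of all 32851 such windows), the GC box GGGCGG (32.7%), the GATA motif AGATAA (9.99%), the ETS motif AGGAAG (29.5%), the FOXA motif TGTTTAC (3.17%), the Grainyhead motif AACCGGTT (0.116%) and the PPAR-RXR direct repeat (0.0335%). No motif contains another. The Upk3a window held GGGCGG at 91 and 18 bases before the start and AGATAA on the other strand at 188 bases before it. In the Upk3b window AGGAAG lay on the other strand at 113 bases before the start. Neither the Upk1a nor the Upk3bl window held any of the 7, and no motif was found in more than 1 of the 4 windows. A match is a match of letters only, and binding was not measured.

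By position the family is dispersed except for 1 pair. In GENCODE M21 (GRCm38), Upk1a is at chr7:30603092-30612847, Upk1b at chr16:38773184-38800328 and Upk2 at chr9:44452715-44454976, all on the minus strand, and Upk3a is at chr15:85017141-85022547 on the plus strand. Upk3b (136038496 to 136046487) and Upk3bl (136054492 to 136064326) are neighbours on the plus strand of chromosome 5, 8004 bases apart. All 6 are protein-coding, with 5 to 8 exons in their longest models and coding lengths of 552 bases (Upk2) to 942 bases (Upk3bl). No other gene of the tables overlapped a member on either strand. The longest run of bases shared between transcripts of any 2 members was 14 (Upk3a and Upk3bl), and the others shared 9 to 12, so the members have no near-identical copies among themselves.

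The partner Upk3a gave the sharpest contrast. Its count was 0 in both controls and in deletion replicates 1 and 2, and 1046 in deletion replicate 3 (95% exact Poisson interval 983.6 to 1111, which covers counting error only). That is 19.4 CPM against a floor, the level of 3 counts, of at most 0.145 CPM in the other libraries, or at least 134-fold higher. The deletion group therefore holds both the highest library and 2 libraries at 0, and it overlaps the controls completely.

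Upk3b, whose protein can take the place of UPK3A beside UPK1B, was distributed in the same way. The controls had 2 and 0 counts, against 1, 0 and 848 in deletion replicates 1, 2 and 3. In deletion replicate 3 it stood at 15.7 CPM, 184-fold the 0.0856 CPM of control replicate 1 (95% counting interval 50.8 to 1521). Upk3b is also a marker of mesothelium, the lining of body cavities, so mesothelial genes are given beside it. In deletion replicate 3 the listed genes Msln, Lrrn4, Muc16, Bnc1, Rspo1 and Nkain4 had 2, 3, 4, 0, 3 and 5 counts. Wt1, a mesothelial transcription factor, had 24 counts or 0.445 CPM in deletion replicate 3, and Cldn15 had 26 counts. Aldh1a2, Pkhd1l1 and Gpm6a had 66, 72 and 210 counts in that library. The 12 mesothelial genes summed to 55.8 CPM there, below the 120 and 81.3 CPM of the controls and above the 30.5 and 32.4 CPM of the other deletion libraries. Krt19, a keratin of many epithelia and also in the urothelial list, supplied 48.1 of those 55.8 CPM, and Gpm6a came next at 3.90 CPM. By mean over the 5 libraries the leading mesothelial genes were Krt19, Gpm6a and Aldh1a2. Of 7 tested mesothelial genes 0 were called, 3 were lower at an unadjusted p under 0.05 (3.23% of all tested genes were), and 4 were lower without overlap (10.2% of all).

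Upk3bl, named for its likeness to Upk3b, was read in deletion replicate 3 alone, with 7 counts (95% exact Poisson interval 2.81 to 14.4) or 0.130 CPM. The floor of 3 counts stood between 0.0940 and 0.145 CPM in the other 4 libraries, where it had 0 counts. The level in deletion replicate 3 lies within that range of floors, so no fold difference is given. Within deletion replicate 3 the neighbours differed by length-scaled level: Upk3b was at 8.84 TPM and Upk3bl at 0.29 TPM.

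The tetraspanin Upk1a was present everywhere at a trace and high in 1 library. The controls had 7 and 10 counts, against 11, 22 and 1404 in deletion replicates 1, 2 and 3, or 0.299, 0.484, 0.386, 0.689 and 26.1 CPM in that order. Deletion replicate 3 was 37.8-fold above the next library (95% counting interval 24.9 to 60.5). The trace in the other 4 libraries ran from 7 to 22 counts, with counting intervals that overlap. The means were 0.392 ± 0.131 CPM (SD, n = 2) in the controls and 9.04 ± 14.7 CPM (SD, n = 3) in the deletion libraries, whose SD exceeds their mean.

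Upk2, the partner of Upk1a, was low in 4 libraries and highest in deletion replicate 3. The controls read 56 and 17 counts, against 18, 18 and 276 for the deletion mice, or 2.40, 0.823, 0.631, 0.564 and 5.12 CPM. Control replicate 1 was the second highest library, and deletion replicate 3 exceeded it 2.14-fold (95% counting interval 1.60 to 2.90). Both statements depend on TMM: without it control replicate 2 was second, at 1.23 CPM against 8.26 (6.71-fold), and in TPM it was second at 0.95 against 10.90 (11.5-fold). The counting intervals of the remaining 3 libraries overlapped. The group means were 1.61 ± 1.11 CPM (SD, n = 2) and 2.11 ± 2.61 CPM (SD, n = 3).

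Upk1b was the exception: it was well detected in all 5 libraries. The controls had 1805 and 493 counts and the deletion libraries 1311, 2143 and 5267, or 77.2 and 23.9 CPM against 45.9, 67.1 and 97.8 CPM. Deletion replicate 3 was again the highest, but only 1.27-fold above control replicate 1 (95% counting interval 1.20 to 1.34). This ratio depends on TMM. Without it deletion replicate 2 was second, at 56.5 CPM against 158 (2.79-fold), and in TPM the step was 4.39-fold. With TMM the lowest and the second highest library were both controls. The groups thus overlapped in those CPM, with means of 50.5 ± 37.7 CPM (SD, n = 2) and 70.3 ± 26.1 CPM (SD, n = 3). The result depends on the scale. In TPM the controls read 7.92 and 15.33 and the deletion libraries 15.74, 26.58 and 116.73, so the groups did not overlap. Such separation with the deletion libraries higher was found for 4.99% of tested genes in TPM.

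**Figure D1:**
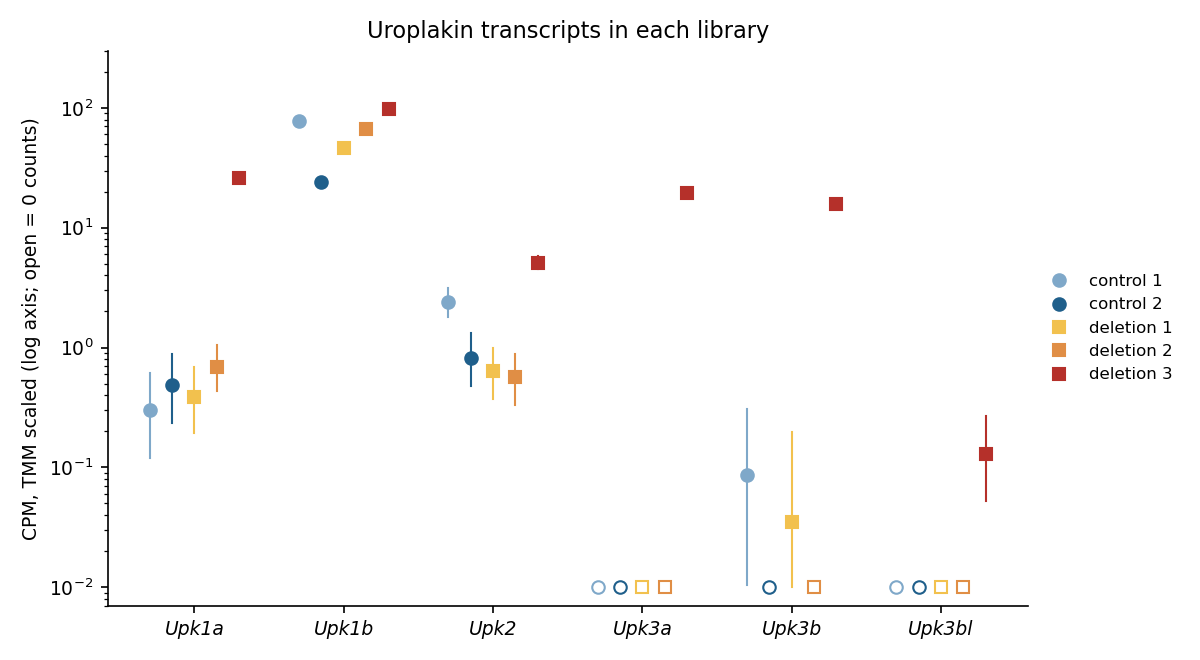
TMM-scaled CPM (log axis) of the 6 uroplakin genes in each library, circles for controls and squares for deletion libraries; bars are 95% exact Poisson intervals of the count, drawn down to 0.01 CPM at the lowest, and open symbols at the bottom mark 0 counts. Upk1b lies between 23.9 and 97.8 CPM in all 5 libraries, while Upk1a, Upk3a and Upk3b are at 15.7 to 26.1 CPM in deletion replicate 3 and below 1 CPM in the others.

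The make-up of the family also differed by library. In deletion replicate 3 the order by TPM was Upk1b at 116.73, Upk3a at 40.26, Upk1a at 40.03, Upk2 at 10.90, Upk3b at 8.84 and Upk3bl at 0.29. Upk3a and Upk1a differed there by less than counting error, while Upk1b made up 53.8% of the summed uroplakin TPM. In the other 4 libraries Upk1b made up 91.9% to 97.3%. The tetraspanin Upk1b exceeded its partners Upk3a and Upk3b together 2.38-fold in deletion replicate 3, and Upk1a exceeded its partner Upk2 3.67-fold. In the 4 other libraries Upk1a was at 0.0909 to 0.875 of the TPM of Upk2, from 7 to 22 counts of Upk1a and 17 to 56 counts of Upk2. Without Upk1b the summed CPM of the family was 2.78 and 1.31 for the controls, against 1.05, 1.25 and 66.5 for the deletion mice. As a share of all counts, with no TMM scaling, the family had 39.2 and 37.6 CPM against 47.0, 57.6 and 264.8 CPM (95% Wilson interval for the last 259.3 to 270.4).

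The comparison between mice labelled Ghr deletion and controls could be fitted for 3 of the 6 members. Upk3a, Upk3b and Upk3bl did not pass the filter on low counts, which asks for expression in at least 2 libraries. The log2 fold changes of the 3 fitted members, which are descriptions here, were 4.53 (SE 2.06) for Upk1a, 0.48 (SE 0.557) for Upk1b and 0.40 (SE 1.11) for Upk2. No call is given for them, because they were chosen on these values. Over all 18615 genes, edgeR (quasi-likelihood test, Benjamini-Hochberg adjusted) called 0.0% and DESeq2 0.881%. In edgeR 4.92% of genes had an unadjusted p under 0.05. Counting all 6 members by CPM, the groups did not overlap for 0, where 9.43% of tested genes were separated with the deletion libraries higher and 10.2% with them lower. Without deletion replicate 3 the log2 fold changes were 0.44 for Upk1a, 0.15 for Upk1b and -1.44 for Upk2. The last is a change of direction, and Upk2 was then lower in both remaining deletion libraries than in either control. Without control replicate 2 it was -0.14 for Upk1b and -0.18 for Upk2, and without control replicate 1 it was 1.56 and 1.36.

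**Figure D2:**
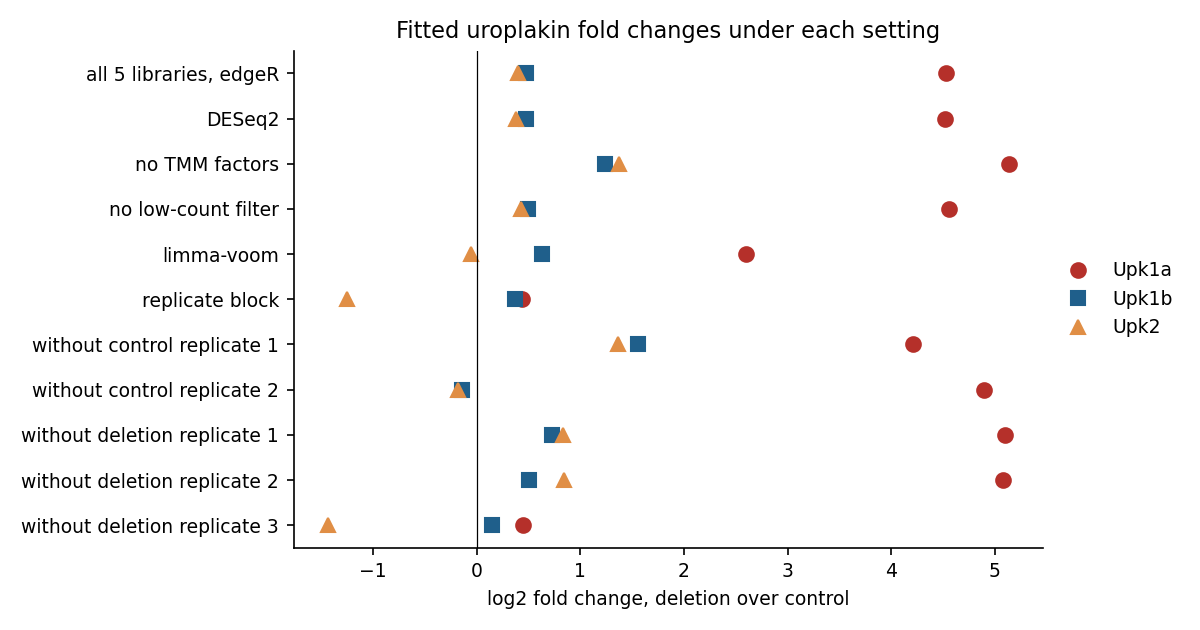
Log2 fold change of deletion over control for the 3 fitted uroplakin genes, 1 row per setting, circles for Upk1a, squares for Upk1b and triangles for Upk2. Upk1a falls from 4.53 to 0.44 without deletion replicate 3, and Upk1b and Upk2 lie on both sides of 0.

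The other genes of the urothelial programme were read from a list of 12 regulators and a list of 25 genes of uroplakin trafficking and the urothelial surface. None of the 11 tested regulators and none of the 21 tested surface genes was called (0 in edgeR and 0 in DESeq2, adjusted over all genes). At an unadjusted p under 0.05 there were 1 regulator, higher, and 1 surface gene, lower, where 1.69% of all tested genes were higher and 3.23% lower. Their median log2 fold changes were -0.06 and 0.22, beside 0.0045 over all tested genes. The lists summed to 1082 and 1578 CPM (regulators) and 1283 and 1270 CPM (surface) in the controls, and to 806 to 1739 and 1094 to 1974 CPM in the deletion libraries. The regulators of highest level were Ehf, Gata3 and Tbx3, and the surface genes of highest level were Krt18, Krt8 and Cldn8, all of them expressed in other epithelia too. For these 6, deletion replicate 3 made up 17.9% to 31.9% of the CPM summed over the 5 libraries.

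A few members of both lists did follow Upk3a. The share of summed CPM in deletion replicate 3 was at least 90% for 1 of 12 regulators and 3 of 21 surface genes. Those counts, and 0.129% over all genes, are for genes with a mean of at least 1 CPM. The list medians of that share were 26.9% and 26.4%, beside 19.1% over all such genes. Krt20, the keratin of umbrella cells, had 0 and 1 counts (controls) against 0, 0 and 1229 (deletion). Psca, a GPI-anchored surface protein of urothelium and other epithelia, had 1 and 0 against 0, 2 and 813 counts. Aqp3, a water and glycerol channel, had 0 and 5 against 0, 4 and 1553. All 3 were thus near 0 in 4 libraries and abundant in deletion replicate 3, the pattern of Upk3a and Upk3b.

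Among the regulators, Grhl3, a Grainyhead factor needed for terminal differentiation of umbrella cells, had 0 and 1 counts for the controls against 4, 0 and 333 for the deletion mice. Pparg, a nuclear receptor that promotes urothelial differentiation, had 0.385 and 0.629 CPM against 0.350, 0.345 and 9.73 CPM, and its partner Rxra had 30.8 and 23.9 against 43.2, 63.1 and 42.3 CPM. Snx31, a sorting nexin that handles uroplakins in multivesicular bodies, had 0.0856 and 1.74 against 1.02, 1.82 and 26.7 CPM. For Pparg and Snx31 deletion replicate 3 held 85.1% and 85.2% of the summed CPM, and for the urea transporter gene Slc14a1 and the simple-epithelial keratin gene Krt7 it held 83.8% and 70.8%. Grhl3, Pparg, Rxra, Snx31, Slc14a1, Krt7, Psca, Aqp3 and Mal were singled out after their values were seen. Mal, a lipid-raft protein that takes part in the delivery of uroplakins to the surface, was spread evenly, at 122 and 91.3 against 99.0, 116 and 154 CPM. Krt13, a keratin of less differentiated urothelium, had 13 counts in deletion replicate 3 and 0 elsewhere, and Sprr1b had 0 in all 5 libraries.

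**Figure D3:**
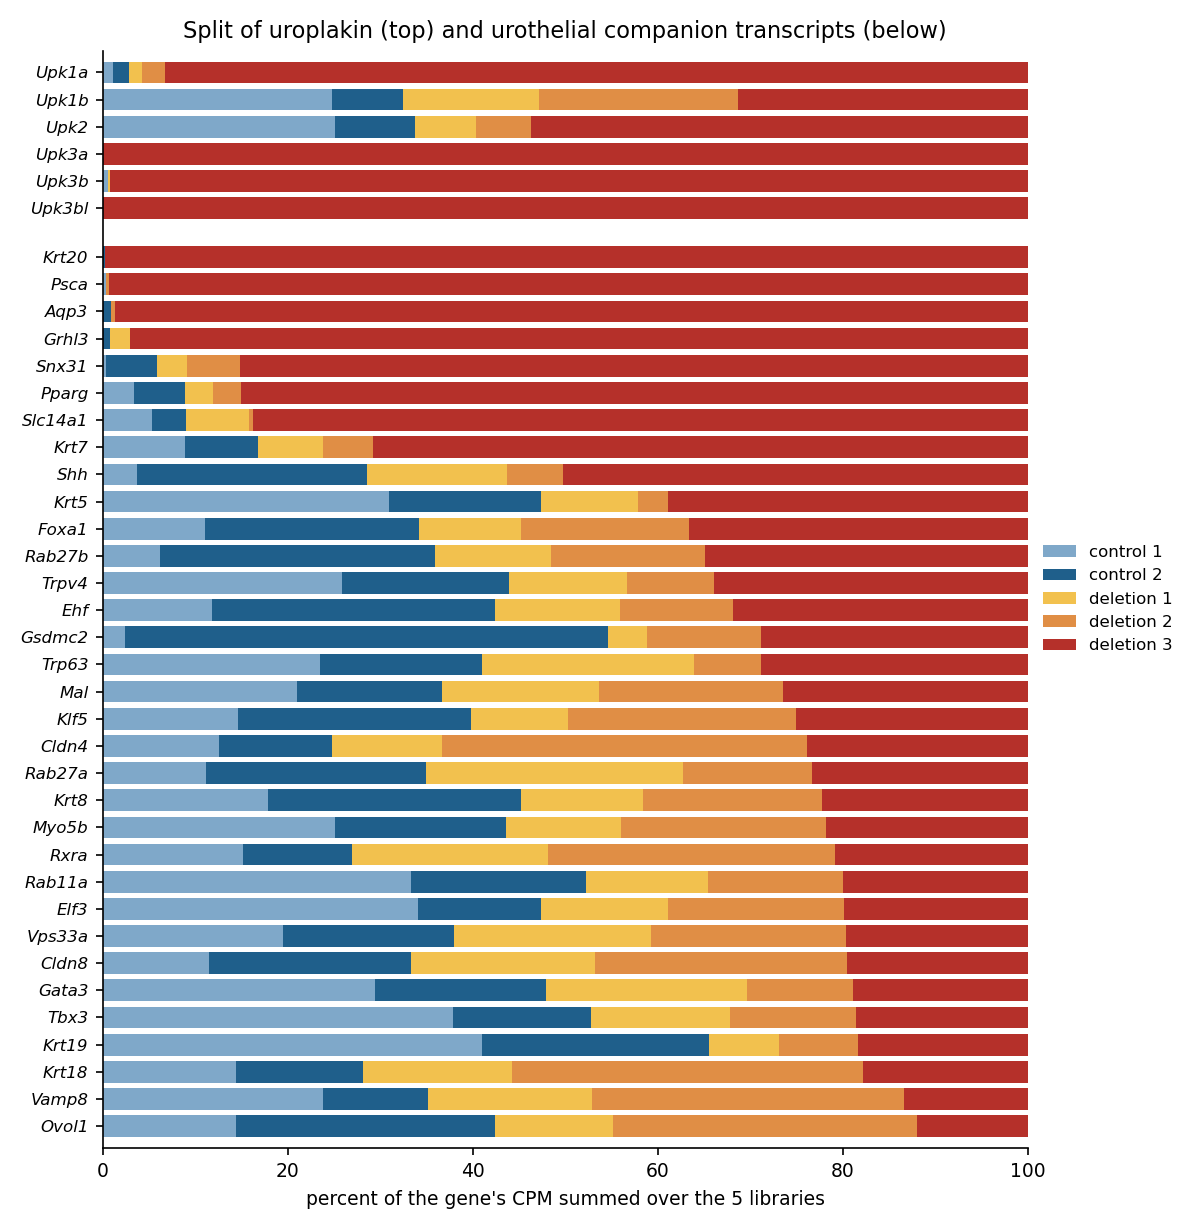
How the CPM summed over the 5 libraries divides among them, for the 6 uroplakin genes (top, in order of name) and for the urothelial list genes of mean at least 1 CPM (below, ordered by the share of deletion replicate 3); the Upk3bl bar rests on 7 counts. Upk1a, Upk3a, Upk3b, Krt20, Psca, Aqp3 and Grhl3 are each above 90% in deletion replicate 3. Upk1b, at 31.3% of the TMM-scaled CPM, is near Ehf (31.9%) and above Gata3, Tbx3, Krt18, Krt8 and Cldn8 (17.9% to 22.2%).

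Concentration in deletion replicate 3 was rare over the transcriptome. Of 14720 genes with a mean of at least 1 CPM, 19 (0.129%) had at least 90% of their summed CPM in that library, and 3 of the 19 were Upk3a, Upk3b and Upk1a, which were chosen knowing this pattern. For the other libraries the same count was 43 (0.292%) in control replicate 1, 3 (0.0204%) in control replicate 2 and 4 (0.0272%) in each of deletion replicates 1 and 2. The median gene had 19.1% in deletion replicate 3. Ranked by this share, Upk3a was at place 1, tied with the noncoding Gm20752 at all of its CPM, Upk3b at 9, Upk1a at 17, Upk2 at 103 (53.7%) and Upk1b at 949 (31.3%). Just inside the 90% line was the pseudogene Mrgprc1-ps at 91.0%.

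**Figure D4:**
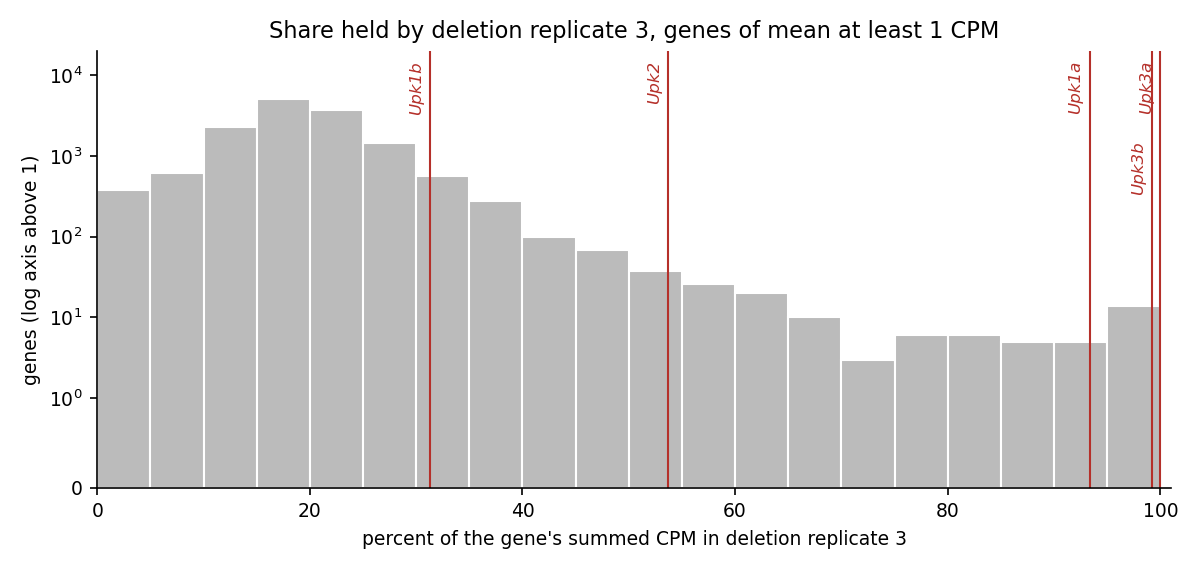
Number of genes (log axis above 1, linear below) by the percent of their summed CPM found in deletion replicate 3, for 14720 genes of mean at least 1 CPM, with red lines at 5 uroplakin genes. Upk1b lies at 31.3% (rank 949), above the median of 19.1%, while Upk1a, Upk3a and Upk3b lie at 93.3% or above.

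The genes whose split over the 5 libraries was closest to each member were found by the share of summed CPM that would have to move to make the splits equal. For Upk3a they were Sptssb, a small subunit of serine palmitoyltransferase, at a distance of 0.0823%, then Krt20 (0.212%), the cornified envelope genes Ivl (0.663%) and Sprr1a (0.839%), and Psca (0.694%). Upk3b had these same 5 genes, at 0.479% to 0.760%. Sptssb had 3168 counts in deletion replicate 3 and 1 count in all other libraries together, and Sprr1a had 2038 counts there and 0 to 5 in each of the others. Upk1a was closest to Sytl2, a RAB27 effector (3.88%), the sensory-neuron receptor gene Mrgpra3 (3.99%), the aldehyde dehydrogenase gene Aldh3a1 (4.37%), Grhl3 (4.51%) and Mrgprc1-ps (4.99%). Reads of Mrgpra3 and Mrgprc1-ps can be shared with other genes of their large family, so their values are uncertain.

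The splits of Upk2 and Upk1b had looser matches. For Upk2 they were Sectm1b, the ceramide synthase gene Cers3, the epithelial sodium channel gene Scnn1g, Tnnt2 and Anxa8, at 9.52% to 12.2%. In all 5, as in Upk2, control replicate 1 was the second highest library after deletion replicate 3, as in Cers3 at 8.68 CPM against 11.3. For Upk1b they were Gpt, Rnf144b, Itih2, Fam83f and Lamb3, at 6.84% to 8.19%, none of which is among the matches of the other members.

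Apart from Upk3b and Upk3bl, which adjoin each other, the genes beside the members that had more than 44 counts in any library were spread over all 5 libraries. Cox6b1, 4013 bases beyond Upk1a and a subunit gene of the respiratory chain, had 55.7 and 67.0 CPM (controls) against 62.2, 92.8 and 56.6 CPM (deletion). On the other side Zbtb32 had at most 15 counts in any library. Fam118a, 6400 bases from Upk3a, was at 9.75 and 13.3 against 10.2, 13.7 and 15.4 CPM, and Mir1249, on its other side, had 0 counts in all libraries. Dtx2, 5623 bases from Upk3b, was at 5.22 and 4.11 against 4.77, 4.26 and 3.71 CPM, and Rasa4, beyond Upk3bl, was at 5.01 and 4.50 against 3.05, 3.73 and 7.39 CPM. Fam118a and Rasa4 were highest in deletion replicate 3, and Cox6b1 and Dtx2 were not. The neighbours of Upk1b (Gm15575 and 4930435E12Rik) and of Upk2 (Foxr1 and Gm9830) had 44 counts or fewer in each library.

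As members of the tetraspanin family, Upk1a and Upk1b were set beside 29 other tetraspanin genes. Of these 27 were tested and 0 were called. Their log2 fold changes had a median of 0.21, and 18 of 27 were above 0, beside 9390 of 18615 genes over all. The groups did not overlap for 5 higher and 2 lower of the 27, where the shares over all tested genes were 9.43% and 10.2%. By mean level the leading genes were Tspan1 (449 and 552 CPM against 347, 1322 and 866), Cd9 (249 and 160 against 249, 415 and 230) and Tspan8 (502 and 140 against 230, 335 and 137). None of the 24 with a mean of at least 1 CPM had 90% of its summed CPM in deletion replicate 3, and the highest was Tspan6 at 49.3%. Upk1b, at 23.9 to 97.8 CPM, was of the same order as Cd151, at 54.5 to 67.1 CPM, while Upk1a reached 26.1 CPM in 1 library. Prph2 and Tspan10 were at 0 in 3 or more libraries and reached 4 counts at most.

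Other tissues of the region were read beside these results, and their part in them was not tested. The 10 smooth muscle genes, led by Myh11, Mylk and Acta2, summed to 2149 and 3826 CPM (controls) against 5749, 1542 and 3586 CPM (deletion), so deletion replicate 3 was not the highest. The 10 genes of vas deferens and epididymis, led by Akr1b7, Crisp1 and Defb1, summed to 16.3 and 1751 against 5386, 4938 and 378 CPM. In deletion replicate 3 Gpx5, Lcn5 and Lcn8 were at 0 and Cftr at 4 counts. Defb1 alone supplied 335 of the 378 CPM there, and Akr1b7 was at 9.26 CPM. Across the libraries Defb1 read 8.51 and 106 CPM (controls) against 211, 559 and 335 CPM (deletion). The 9 prostate genes, led by Spink1, Pbsn and Tgm4, summed to 4445 and 13.5 against 2.63, 2.72 and 1.89 CPM. Spink1 alone supplied 4390 of the 4445 CPM of control replicate 1, and Msmb was at 0 in the deletion libraries. The 10 basal and luminal epithelial genes, led by Krt18, Cdh1 and Epcam and with Krt6a at 0 throughout, summed to 1029 and 1526 against 945, 1996 and 1852 CPM. By summed CPM deletion replicate 3 was the lowest library for the prostate and seminal vesicle lists, and the highest for none of these lists.

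**Figure D5:**
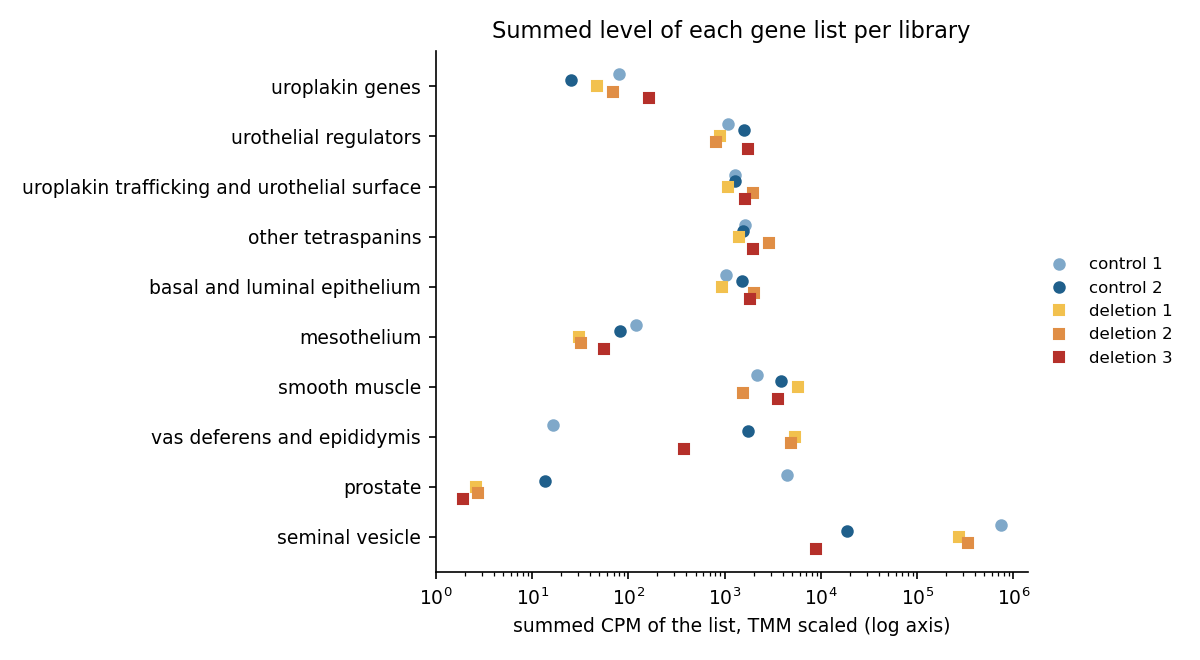
Summed TMM-scaled CPM (log axis) of each gene list in each library, circles for controls and squares for deletion libraries; some keratins stand in 2 lists. The uroplakin sum is highest in deletion replicate 3, at 164 CPM against 25.2 to 80.0, while the seminal vesicle sum is lowest there.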

How the data were processed

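Stranded total RNA libraries were made from flash-frozen tissue, as the labels' protocols state. STAR 2.5.3a, RSEM 1.3.0, bcl2fastq 2.20.422 and the GRCm38 build stand in the submitters' processing notes. No annotation release or strand setting is given in the sources used here. Per the file headers, the authors deposited RSEM's expected counts, its TPM (scaled to gene length and library) and its FPKM, the last not used.

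Expected counts were rounded and fitted in edgeR 4.0.16 (R 4.3.3) with filterByExpr, TMM, robust glmQLFit and glmQLFTest. Group was the only term, and calls needed an adjusted p (Benjamini-Hochberg over 18615 genes) below 0.05. TMM factors were 0.491 and 1.50 (controls) against 1.00, 0.843 and 1.61 (deletion). Alternatives were DESeq2 1.42.0, limma-voom 3.58.1, no TMM, no filter, the replicate number as a block and each library left out. The fit was tested on simulated data. Symbols were found for 99.46% of gene IDs, and upstream sequences came from RefSeq. Shares carry Wilson intervals and counts exact Poisson intervals.

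The members, the 9 gene lists and the alternatives were chosen with earlier results of these data known. Named genes were the members; in each list those called and, with fewer than 3, the 3 of highest mean CPM and any at 0 in 3 or more libraries; for each member with at least 100 counts, the 5 genes (no Gm or Rik names, mean of at least 1 CPM) of closest split over libraries; and the gene on each side. Other genes named were chosen after their values were seen.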

Additional observations from a re-analysis of the deposited data

How the results depend on the processing

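With only 2 controls the spread among mice limits precision, and log2 fold changes had a median SE of 0.529. Genes called numbered 0 in edgeR and in limma-voom, 164 in DESeq2, 46 without TMM factors and 8 with the replicate number as a block. Leaving out 1 library gave 0 to 48, the highest without control replicate 2, with 2 without deletion replicate 3. Fitting without the low-count filter called 0 of 29569 genes. Genes of the urothelial and tetraspanin lists called numbered 0, and 0 to 1 with 1 library left out (Tspan33, without control replicate 2). Uroplakin members whose groups did not overlap numbered 0 by CPM, 1 by the deposited TPM, 1 by CPM without TMM factors (Upk1b in both), and 0 to 1 with 1 library left out.

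Whether the replicate numbers pair the libraries could not be decided. With only 2 controls, their deviations from the group mean mirror each other, so correlating deviations over genes does not test pairing. The correlations were 0.18 for the libraries numbered 1 and -0.14 for those numbered 2. With the replicate block, to which deletion replicate 3 adds nothing because no control shares its number, the log2 fold changes were 0.44 for Upk1a, 0.37 for Upk1b and -1.25 for Upk2. For Upk2 limma-voom gave -0.05. Without TMM factors, where the median of all genes moved to 0.23, they were 5.13, 1.24 and 1.38. In the fits without a control, the lone control is assumed to vary like the deletion libraries.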

Other observations

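Besides the 3 uroplakins, the 19 genes with at least 90% of their summed CPM in deletion replicate 3 held 10 further protein-coding genes (Sptssb, Krt20, Ivl, Psca, Sprr1a, Aqp3, Aldh3a1, Mrgpra3, Grhl3 and Sytl2), 3 annotated pseudogenes, the long noncoding RNA Gm20752 and the snRNA genes Gm24924 and Gm26244. Gm20752 read 391 counts in deletion replicate 3 and was, besides Upk3a, the gene of the 19 at 0 in every other library. The snRNA genes had equal rounded counts in each library (286 in deletion replicate 3), so their reads cannot be told apart. This enumeration was made after the values were seen.

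In the tetraspanin list the low library was control replicate 1 for Tspan33, at 0.727 CPM against 16.0 in control replicate 2 and 22.7, 32.4 and 26.8 in the deletion libraries. The annotated length of Upk3a used by RSEM was 1106 bases, where GENCODE M21 gives 1093, so the authors' annotation was not this release in every gene model.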
